A study of Mus musculus with 28 samples.

Results

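In RNA from mouse heart, 9 transcripts that mark fat tissue were followed. The set comprised 4 secreted adipokines (Adipoq, Cfd, Retn and Lep), 3 proteins of the lipid droplet (Plin1, Cidec and Cidea), the brown fat uncoupling protein Ucp1 and carbonic anhydrase 3 (Car3). They were taken by gene name from a table of raw counts, and 9 of its 45513 gene rows were used. The heart samples were ventricular myocardium of 28 male C57BL/6 mice, with 1 library of total RNA for each mouse. All mice ate a diet with 1% hydroxyproline, a precursor of oxalate, and 0.5% calcium. At 6 weeks of age the mice had either 5/6 nephrectomy, a model of chronic kidney disease (CKD), or a sham operation. On day 7 each mouse received 1 oral gavage of either Oxalobacter formigenes (Oxf), a gut bacterium that degrades oxalate, or its culture medium as vehicle. The groups were sham-vehicle (n = 10), CKD-vehicle (n = 6), sham-Oxf (n = 5) and CKD-Oxf (n = 7). The design named 10 mice per group, and the remaining mice were not analysed here. Hearts were perfused with saline before the tissue was taken. Mice are numbered in the order of their records, so a number does not link a mouse of one group with a mouse of another.

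White adipocytes store triglyceride in 1 large droplet and secrete hormones such as adiponectin, adipsin, resistin and leptin. Brown adipocytes hold many small droplets and many mitochondria, and Ucp1 lets protons leak across the inner mitochondrial membrane so that fuel is burnt as heat. In rodents small fat depots lie on the outer surface of the heart, around its base and along the great vessels, and brown fat lies around the thoracic aorta. Cardiomyocytes themselves carry lipid droplets and take up fatty acids, so several genes of lipid handling are active in both cell types.

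Total counts ranged from 19.8 to 65.4 M per library (median 38.1 M). One library, sham-Oxf 1, stood apart: a count was present for 15879 genes there, against 27128 to 33995 in the other 27 libraries. Levels are given as CPM, the counts of a gene relative to the total of its library, scaled by trimmed mean of M values (TMM) factors. Summed levels of 8 cardiomyocyte markers such as Myh6 and Myl2 were 17708 to 46351 CPM over the 28 libraries. Between 2.12% and 23.6% of a library's counts came from 7SL, an abundant small cytoplasmic RNA. In bulk tissue, fewer cells of a type and less RNA per cell cannot be told apart.

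On GRCm38, Adipoq (ENSMUSG00000022878) lies on chromosome 16 at 23146536 to 23158028, Cfd (ENSMUSG00000061780) on chromosome 10 at 79890853 to 79892655 and Retn (ENSMUSG00000012705) on chromosome 8 at 3655770 to 3660110. Lep (ENSMUSG00000059201) lies on chromosome 6 at 29060220 to 29073877, and Cidec (ENSMUSG00000030278) on the same chromosome at 113424634 to 113435760. Plin1 (ENSMUSG00000030546) lies on chromosome 7 at 79720218 to 79732903, Ucp1 (ENSMUSG00000031710) on chromosome 8 at 83290352 to 83298452 and Car3 (ENSMUSG00000027559) on chromosome 3 at 14863512 to 14872523. These 8 genes overlapped no other gene annotated in GENCODE M21. The annotation and the handling of multiply mapped reads behind the counts are not given, so sharing of reads was not tested.

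Of the 9 genes, 7 had an entry in RefSeq's table of gene starts on GRCm38.p6 (Cidea and Car3 had none). The 250 bases before the start are shown for 4 of them: Adipoq, to which the others are compared, Plin1, which kept to it closely, and Lep and Ucp1, whose proportion to it varied most. Capitals mark matches to the motifs searched, and each sequence is written 5′ to 3′ on the strand of its gene.
Adipoq, chr16:23146286-23146535, plus strand: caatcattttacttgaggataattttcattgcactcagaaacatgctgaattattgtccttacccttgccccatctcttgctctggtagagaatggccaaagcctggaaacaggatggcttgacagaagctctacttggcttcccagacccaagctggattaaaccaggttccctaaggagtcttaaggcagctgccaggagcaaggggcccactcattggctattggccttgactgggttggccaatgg
Plin1, chr7:79732777-79733026, minus strand: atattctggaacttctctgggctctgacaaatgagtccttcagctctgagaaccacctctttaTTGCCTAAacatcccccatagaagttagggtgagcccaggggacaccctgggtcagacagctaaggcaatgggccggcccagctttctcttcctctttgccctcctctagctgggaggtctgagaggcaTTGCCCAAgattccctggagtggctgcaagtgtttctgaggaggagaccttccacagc
Lep, chr6:29059971-29060220, plus strand: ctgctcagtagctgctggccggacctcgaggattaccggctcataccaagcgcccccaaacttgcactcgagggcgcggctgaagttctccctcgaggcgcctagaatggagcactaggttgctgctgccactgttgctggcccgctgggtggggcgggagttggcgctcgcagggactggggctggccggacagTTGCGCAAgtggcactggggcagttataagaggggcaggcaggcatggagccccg
Ucp1, chr8:83290098-83290347, plus strand: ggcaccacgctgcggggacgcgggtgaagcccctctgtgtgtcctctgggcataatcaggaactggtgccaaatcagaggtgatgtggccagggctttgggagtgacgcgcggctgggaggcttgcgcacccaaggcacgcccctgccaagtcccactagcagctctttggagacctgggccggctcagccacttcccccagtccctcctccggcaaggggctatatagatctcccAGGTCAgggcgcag

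The motifs, searched on both strands, were the PPAR response element, a direct repeat with a spacer of 1 base (present in 0.0335% of 32851 such windows), its half-site AGGTCA, which the repeat contains (14.0%), the C/EBP core TTGCNNAA (9.56%), the TATA box TATAAA (12.4%), CACGTG (6.02%) and TGACGTCA (1.55%). The half-site matched in Ucp1 at position -14 from the start. The C/EBP core matched in Lep at position -55 and in Plin1 at positions -187 and -58, and it also matched at -198 in 1 of the 2 Cidec entries. The windows of Adipoq, Cfd and Retn held none of these 6 words.

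Adipoq encodes adiponectin, a hormone made almost only by adipocytes. Its level in the 10 sham-vehicle libraries ran from 0.446 CPM through a median of 7.85 to 43.8 CPM. In the 6 CKD-vehicle libraries it ran from 0.241 through 1.44 to 19.1 CPM, and in the 7 CKD-Oxf libraries from 0.419 through 2.46 to 41.2 CPM. Each of these 3 groups thus spanned a 79.4-fold range or more. The 5 sham-Oxf libraries held 0, 11.1, 17.0, 0.351 and 1.48 CPM, so mice 2 and 3 were high and the other 3 low. Over the 27 libraries with a count the highest was 181 times the lowest. Adipoq stood at 5 CPM or more in 12 of the 28 libraries, of which 6 were sham-vehicle, 1 CKD-vehicle, 2 sham-Oxf and 3 CKD-Oxf. It was under 1 CPM in 10 libraries, 3 of them sham-vehicle, 2 CKD-vehicle, 2 sham-Oxf and 3 CKD-Oxf. Libraries on both sides of the scale therefore occurred in every group, and the highest value came from a sham-vehicle mouse and the next from a CKD-Oxf mouse.

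Cfd, which encodes adipsin, the complement factor D that fat cells secrete, was the most abundant of the 9 per length of transcript. Its median over the libraries was 14.0 CPM per kilobase, followed by Car3 at 8.97, Cidea at 3.66, Cidec at 1.95, Adipoq at 1.76, Plin1 at 1.39, Retn at 0.435, Ucp1 at 0.244 and Lep at 0.0364. The level of Cfd ran from 1.92 through 38.2 to 212 CPM in sham-vehicle, from 1.66 through 9.49 to 97.1 in CKD-vehicle and from 2.32 through 14.3 to 228 in CKD-Oxf. In sham-Oxf it was 0.0474, 69.3, 81.2, 1.46 and 8.54 CPM, and the same 2 mice that were high for Adipoq were high for Cfd.

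Retn encodes resistin, an adipocyte hormone in rodents. Its level ran from 0.131 through 2.02 to 11.9 CPM in sham-vehicle, from 0.0603 through 0.509 to 7.59 CPM in CKD-vehicle and from 0 through 0.836 to 11.6 CPM in CKD-Oxf. The sham-Oxf libraries held 0, 3.40, 3.67, 0.0811 and 0.312 CPM. Resistin was thus again high in sham-Oxf 2 and 3, and its group ranges overlapped throughout.

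Lep, the gene of leptin, the satiety hormone of white fat, was the rarest of the 9. Its level ran from 0.0607 through 0.332 to 3.41 CPM in sham-vehicle, from 0 through 0.0699 to 1.36 CPM in CKD-vehicle and from 0 through 0.0781 to 1.76 CPM in CKD-Oxf. In sham-Oxf the values were 0, 1.55, 3.97, 0.108 and 0.208 CPM, and the value of mouse 3 was the highest of the study. Lep had 0 counts in 4 of the 28 libraries, where depth allowed no statement below 3 counts, or 0.142 CPM in the shallowest of them.

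Plin1 encodes perilipin 1, the coat protein of the adipocyte droplet that guards it against lipases. It ran from 0.954 through 21.4 to 92.6 CPM in sham-vehicle, from 0.603 through 2.08 to 43.7 CPM in CKD-vehicle and from 0.790 through 7.31 to 72.1 CPM in CKD-Oxf. The 5 sham-Oxf values were 0, 40.0, 48.2, 1.19 and 8.02 CPM. Cidec, also called Fsp27, encodes a protein that makes droplets fuse into large ones. It ran from 0.709 through 12.9 to 77.6 CPM in sham-vehicle, from 0.332 through 1.45 to 34.4 CPM in CKD-vehicle and from 0.381 through 5.79 to 67.9 CPM in CKD-Oxf. The sham-Oxf values of Cidec were 0, 25.2, 36.4, 0.676 and 3.90 CPM. Plin1 and Cidec were thus high and low in the same sham-Oxf mice as the adipokines.

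Cidea, a relative of Cidec that is abundant in brown adipocytes and promotes droplet growth there, differed from the other 8 in its spread. The gene (ENSMUSG00000024526) lies on chromosome 18 at 67343604 to 67367785. Its bounds contain part of a gene on the opposite strand, B430212C06Rik, whose exons do not overlap those of Cidea and which had 1937 counts over all libraries. Cidea ran from 2.68 through 4.49 to 9.81 CPM in sham-vehicle, from 3.19 through 3.91 to 8.72 CPM in CKD-vehicle and from 1.86 through 2.95 to 5.37 CPM in CKD-Oxf. In sham-Oxf it was 4.65, 2.32, 4.36, 2.68 and 2.73 CPM. All 28 libraries lay within a 5.28-fold range, with a coefficient of variation of 42.4% against 136% for Adipoq. Libraries with almost no Adipoq still held Cidea: sham-Oxf 1, with 0 Adipoq counts, had 98 Cidea counts.

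Ucp1 had 0 counts in 7 of the 28 libraries. Its level ran from 0 through 2.21 to 27.8 CPM in sham-vehicle, from 0 through 0.249 to 11.3 CPM in CKD-vehicle and from 0 through 0.362 to 9.02 CPM in CKD-Oxf. The sham-Oxf libraries held 0, 0.383, 0.776, 0 and 2.42 CPM, so that here mouse 5 was the highest, not mice 2 and 3. The 2 highest values of the study, 27.8 CPM in mouse 8 and 17.5 CPM in mouse 4, were both sham-vehicle.

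Car3 encodes a cytosolic carbonic anhydrase that is abundant in white fat and in slow skeletal muscle. It was detected in every library and ran from 3.78 through 81.0 to 438 CPM in sham-vehicle, from 2.71 through 9.35 to 220 CPM in CKD-vehicle and from 2.97 through 31.2 to 388 CPM in CKD-Oxf. The sham-Oxf values were 20.2, 145, 207, 3.81 and 19.4 CPM. Its highest value was 161 times its lowest, and the high libraries were those high for Adipoq.

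**Figure D1:**
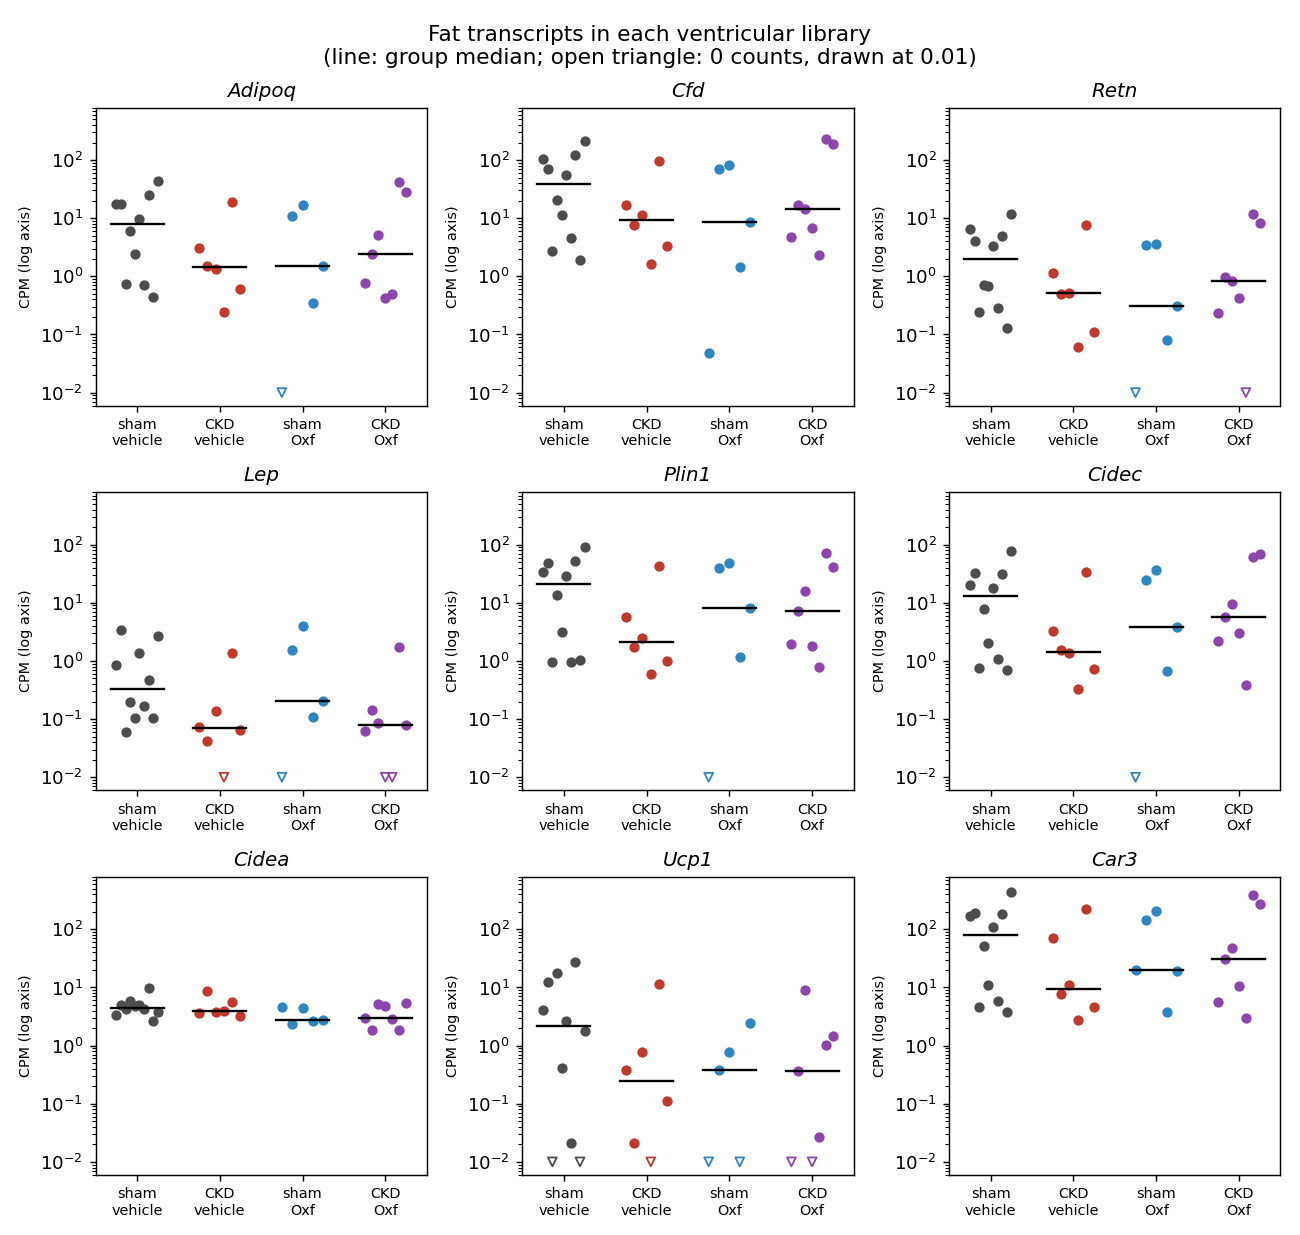
Level of each of the 9 transcripts in CPM on a logarithmic axis, with 1 point per library, the 4 groups side by side and a line at each group's median (open triangles: 0 counts). The points of every group spread widely except for Cidea, whose 28 values stay between 1.86 and 9.81 CPM.

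Across the 28 libraries 7 of the other 8 transcripts rose and fell with Adipoq (log2 CPM with a prior count of 2, permutation test with 100000 draws, 36 pairs of members adjusted together). Cfd was closest, with a Spearman rho of 0.978 and a Pearson r of 0.982. The value of rho was 0.967 for Retn (r = 0.961), 0.952 for Cidec (r = 0.973), 0.947 for Plin1 (r = 0.979) and 0.918 for Car3 (r = 0.894). Ucp1 followed with rho 0.810 (r = 0.790) and Lep with rho 0.750 (r = 0.807). For these 7, the permutation p was 1e-05 for both measures, the smallest that these draws can give, and the adjusted p was 1.44e-05. Without the 2 libraries farthest from the median of Adipoq, r for the 7 remained between 0.781 and 0.979. Without sham-Oxf 1 their rho was 0.723 to 0.976. After subtraction of the group means their residual rho was 0.807 to 0.981, so the relation was present among mice of the same group.

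Cidea did not follow Adipoq: rho was 0.245 (permutation p = 0.210, adjusted p = 0.244) and r was 0.152 (permutation p = 0.445, adjusted p = 0.506). With CPM not scaled by TMM factors the rho was 0.493 and passed (permutation test, adjusted p = 0.00963). Among its 8 pairs with the other members, rho ran from -0.0408 to 0.415, and only the pair with Ucp1 passed the threshold by rho. For that pair the permutation p was 0.0275 and the adjusted p 0.0342. Its r of 0.343 did not pass (permutation p = 0.0722, adjusted p = 0.0897), and its rho fell to 0.242 on residuals from the group means. The 28 pairs without Cidea had rho from 0.676 to 0.981, and all of them passed.

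**Figure D2:**
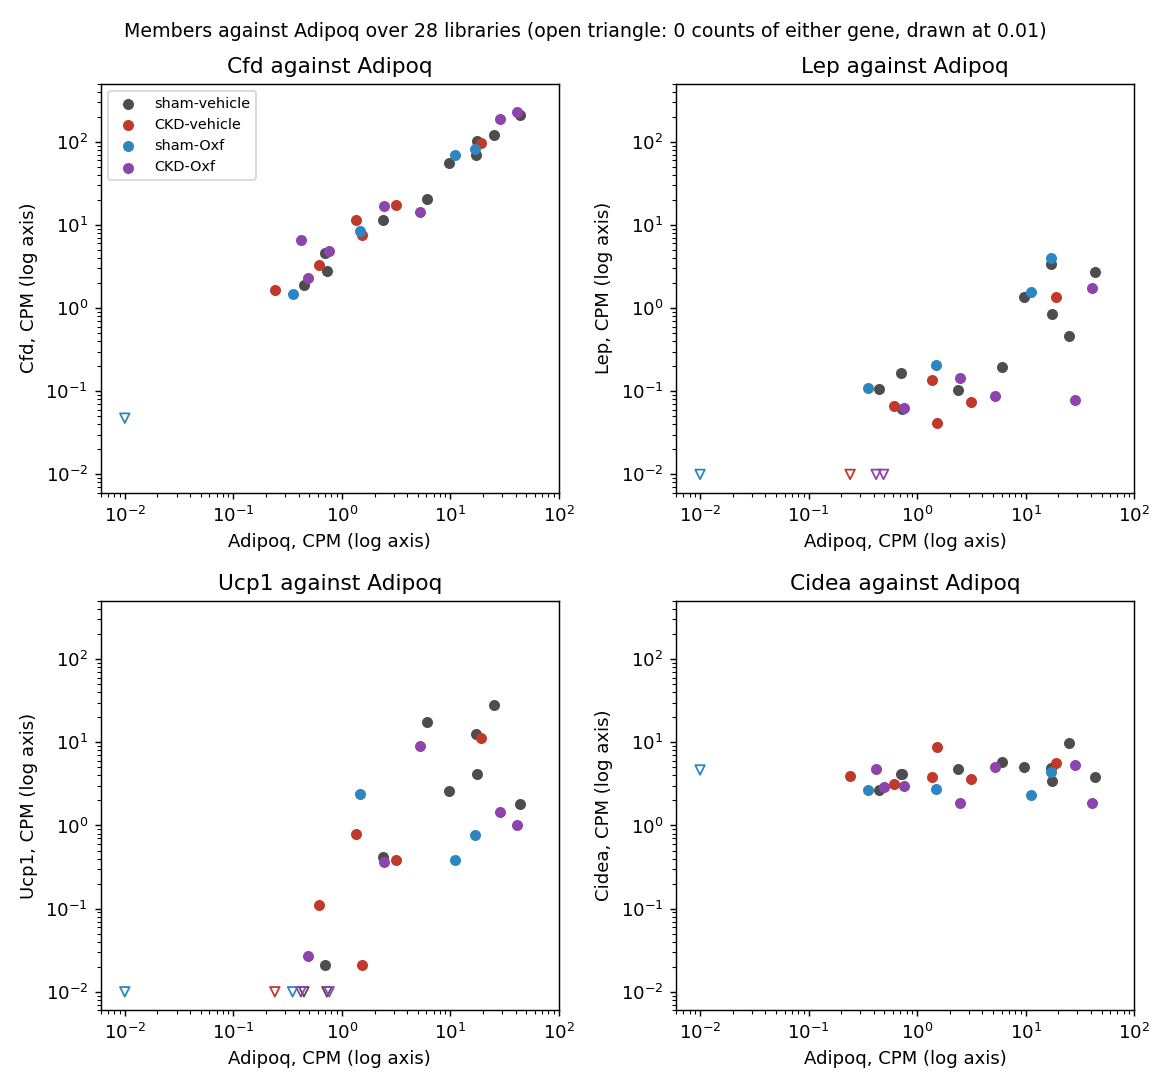
Levels of Cfd, Lep, Ucp1 and Cidea against Adipoq, both in CPM on logarithmic axes, with 1 point per library coloured by group (open triangles: 0 counts of either gene). Cfd follows a narrow diagonal (rho 0.978), Lep and Ucp1 a wider one, and Cidea stays flat (rho 0.245).

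The proportions among the transcripts were compared in the 12 libraries with at least 5 CPM of Adipoq, as counts per Adipoq count. Car3 per Adipoq ran from 7.43 to 13, Cidec from 1.17 to 2.39, Cfd from 2.75 to 6.58, Plin1 from 1.48 to 3.61 and Retn from 0.116 to 0.397. Cfd, Retn, Plin1, Cidec and Car3 thus kept within 3.43-fold of proportion while Adipoq itself changed from 5.22 to 43.8 CPM. Ucp1 per Adipoq, by contrast, ran from 0.0247 to 2.89, a 117-fold range, and Lep per Adipoq from 0.00275 to 0.233, an 84.8-fold range.

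Ucp1 was out of proportion in single mice of 3 groups. The count per Adipoq count was 2.89 in sham-vehicle 4, 1.73 in CKD-Oxf 3 and 1.11 in sham-vehicle 8. It was 1.63 in sham-Oxf 5, a library with 57 Adipoq counts. At the other end lay the 2 highest Adipoq libraries, with 0.0413 in sham-vehicle 10 and 0.0247 in CKD-Oxf 6, and sham-Oxf 2 had 0.0345. In CKD-vehicle the ratio was 0.589 in mouse 5 (802 Adipoq counts) and 0.0137 in mouse 2 (73 Adipoq counts). Fat transcripts with more Ucp1 and with less Ucp1 thus occurred within every group. The high value of sham-Oxf and the low value of CKD-vehicle came from libraries with few Adipoq counts.

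Among the 12 libraries with at least 5 CPM of Adipoq, Lep was lowest in proportion in CKD-Oxf 7. That library had 4 Lep counts beside 1454 Adipoq counts. Among the same 12, the proportion of Lep was highest in sham-Oxf 3 (0.233) and sham-vehicle 2 (0.197). In libraries below that level it was 0.308 in sham-Oxf 4 (13 Adipoq counts) and 0 in CKD-vehicle 4 (8 Adipoq counts). In CKD-Oxf 3 and sham-vehicle 8, where Ucp1 was high, Lep per Adipoq was 0.0166 and 0.0187. Of the 12 libraries 1 was CKD-vehicle and 2 were sham-Oxf, so these ratios were not compared between the groups.

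**Figure D3:**
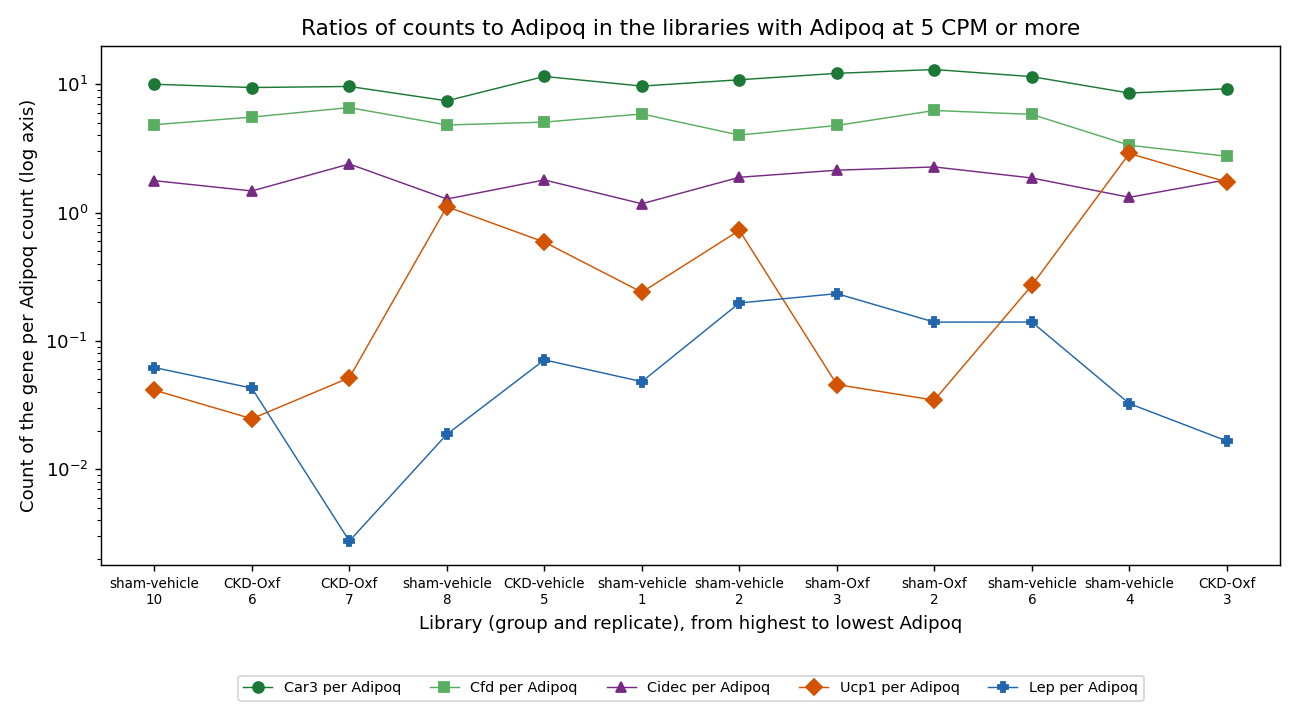
Counts of Car3, Cfd, Cidec, Ucp1 and Lep per Adipoq count, on a logarithmic axis, in the 12 libraries with at least 5 CPM of Adipoq, ordered from the highest Adipoq to the lowest; lines join the points of a gene to guide the eye. The lines of Car3, Cfd and Cidec are nearly level, whereas Ucp1 moves between 0.0247 and 2.89 and Lep between 0.00275 and 0.233.

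Outside the 12 libraries with at least 5 CPM of Adipoq, Car3 also fell below its lowest proportion there, 7.43 per Adipoq count. Examples were 4.68 in sham-vehicle 5 (93 Adipoq counts) and 5.10 in CKD-vehicle 2 (73 Adipoq counts). Car3 was far above the proportion in 3 libraries. In sham-Oxf 1 there were 425 Car3 counts (20.2 CPM) with 0 counts of Adipoq, Plin1, Cidec, Ucp1, Lep and Retn and 1 count of Cfd. In CKD-vehicle 1 Car3 was 22.3 per Adipoq count, and the summed level of 10 skeletal muscle markers there was 758 CPM against a group median of 5.53. Such a sum did not always go with a high proportion of Car3: sham-vehicle 6, with 633 CPM, had 11.5 Car3 per Adipoq count. In sham-Oxf 1 the skeletal muscle sum was 29.3 CPM against a group median of 5.52. The summed level of 8 liver markers in sham-Oxf 1 was 66.5 CPM against a group median of 15.5. In CKD-Oxf 4 Car3 was 25.7 per Adipoq count, but only 16 Adipoq counts were present. Cidec (7.12 per Adipoq count) and Cfd (15.9) were also at their highest proportion there. The summed level of 8 liver markers in that library was 124 CPM against a group median of 23.9. The part of muscle and liver RNA in these proportions was not tested.

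The first group comparison asks how the heart differed with CKD when no bacterium was given. In CKD-vehicle against sham-vehicle 0 of the 9 transcripts passed the threshold of adjusted p 0.05 (edgeR's quasi-likelihood test, Benjamini-Hochberg over 24273 genes). In this comparison 0.00824% of all tested genes passed (2 genes). All 9 fitted log2 differences were negative, from -1.72 to -0.02. Their median was -1.47 against -0.03 over all genes, while the adjusted p ran from 0.955 to 0.995. The transcripts other than Cidea rose and fell together (rho 0.676 to 0.981 over their pairs). Their signs, here and below, are therefore not independent results. Adipoq differed by -1.51 ± 1.18 (SE; edgeR p = 0.213, adjusted p = 0.955), Ucp1 by -1.67 ± 1.39 and Car3 by -1.15 ± 1.19. Cidea differed by -0.02 ± 0.28. An SE above 1 on the log2 scale for the 8 transcripts other than Cidea leaves differences of several-fold in either direction undetectable with these numbers of mice. At an unadjusted p under 0.05 edgeR called 0 of the 9 (4.46% of all genes), DESeq2 0 (3.88%) and limma 6 (21.5%). After adjustment 0 of these passed. The DESeq2 shares, here and below, are over 43827 genes without a filter on low counts. Those of edgeR and limma are over 24273 genes, so the shares are not fully alike.

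The second comparison asks what the bacterium changed in CKD. In CKD-Oxf against CKD-vehicle 0 of 9 passed, against 0.033% of all genes (8 genes). Of the differences, 7 were positive and 2 negative, with a median of 1.04 against 0.03 over all genes. At an unadjusted p under 0.05 edgeR, DESeq2 and limma called 0 of the 9, against 13.1%, 9.31% and 32.4% of all genes. Cidec had the highest, 1.62 ± 1.3 (adjusted p = 0.596), and Adipoq differed by 1.38 ± 1.23 (adjusted p = 0.645), both by edgeR. This comparison shares the CKD-vehicle mice with the first.

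In sham-Oxf against sham-vehicle 0 of 9 passed, against 0% of all genes. Ucp1 had the largest fitted difference among the 9, -3.18 ± 1.66 (edgeR p = 0.0661, adjusted p = 0.425), Cidea differed by -0.55 ± 0.30 (adjusted p = 0.448) and Adipoq by -1.03 ± 1.24 (adjusted p = 0.776). Without sham-Oxf 1 the values were -2.90 for Ucp1, -0.69 for Cidea and -0.72 for Adipoq (edgeR adjusted p = 0.596, 0.531 and 0.848). In CKD-Oxf against sham-Oxf 0 of 9 passed, again against 0% of all genes, with differences from -1.90 (Lep) to 1.19 (Ucp1), which were -2.20 and 0.90 without sham-Oxf 1. The interaction of surgery and gavage gave 0 of 9, against 0%, and its lowest p among the 9 was 0.180 (edgeR, unadjusted). At an unadjusted p under 0.05 edgeR and DESeq2 called 0 of the 9 in sham-Oxf against sham-vehicle (12.6% and 9.01% of all genes) and limma 1 (15.5%). For CKD-Oxf against sham-Oxf all 3 tools called 0 of the 9 (edgeR 8.23%, DESeq2 6.34% and limma 8.17% of all genes), and likewise for the interaction (3.55%, 3.36% and 6.19%). The CPM ranges of the groups overlapped for 9 of 9 transcripts in each of the 4 pairwise comparisons, and few genes at all had ranges apart: 0.128% for CKD-vehicle against sham-vehicle, 0.478% for CKD-Oxf against CKD-vehicle, 0.227% for sham-Oxf against sham-vehicle and 0.272% for the comparison of the Oxf groups.

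With the gavage effect averaged over both surgeries, 0 of 9 passed while 2.81% of all genes did (681 genes). That number was between 109 (without CKD-vehicle 2) and 3362 (without CKD-Oxf 4) when 1 library was left out. Cidea came nearest, with -0.49 ± 0.21 (edgeR p = 0.0264, adjusted p = 0.159), and passed with limma (-0.57, adjusted p = 0.0494), as did 22% of all genes. Without sham-Oxf 1 edgeR gave -0.57 for Cidea (adjusted p = 0.105). Its group medians were 4.49 and 3.91 CPM with vehicle and 2.73 and 2.95 CPM with Oxf. With the surgery effect averaged over both gavages 0 of 9 passed, against 0% of all genes. Lep had the lowest p there, with -1.81 ± 0.81 (edgeR p = 0.0331, adjusted p = 0.434; -1.96 and adjusted p = 0.32 without sham-Oxf 1), and Adipoq differed by -0.30 ± 0.84. In each of the averaged comparisons edgeR, DESeq2 and limma called 1 of the 9 at an unadjusted p under 0.05. Of all genes they called 23%, 15.2% and 35.6% for gavage and 10.6%, 7.95% and 19.5% for surgery. Leaving out 1 library at a time turned the sign of 79 of 1260 fitted differences, and 0 of those values passed. No labels tie mice to cages or days, so these p-values measure the spread between single mice.

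**Figure D4:**
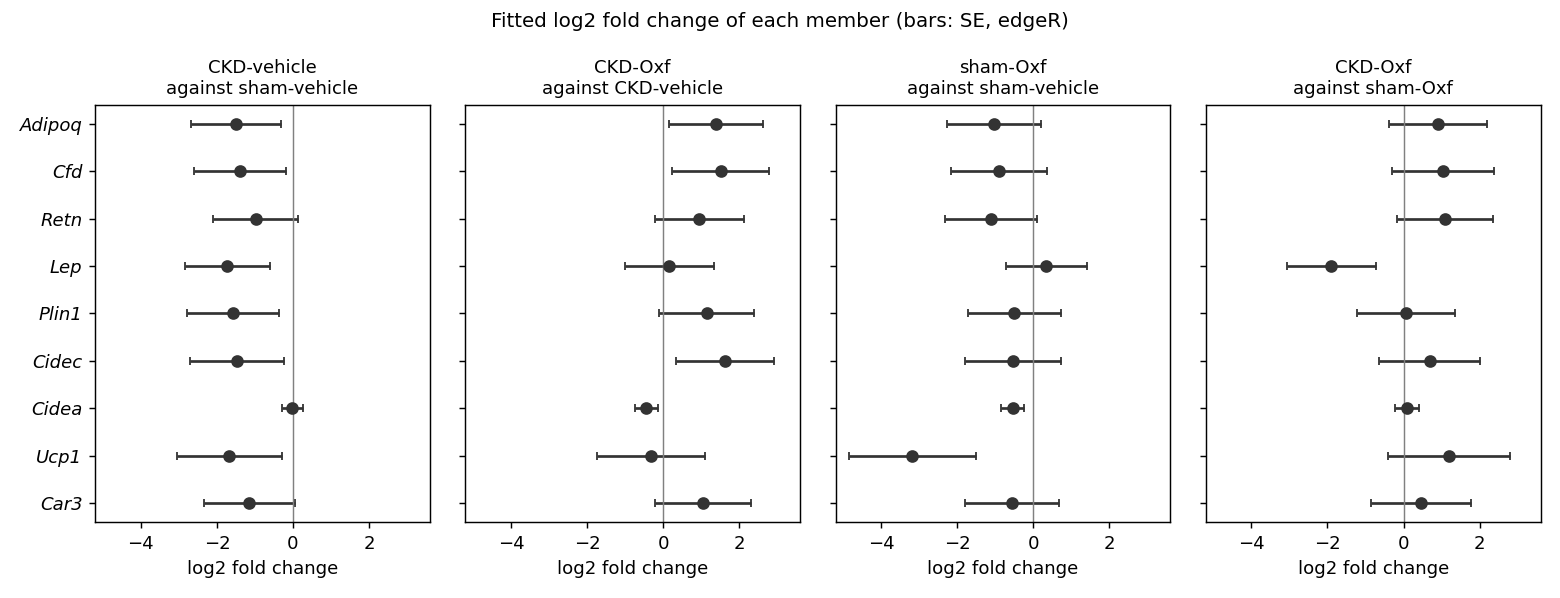
Fitted log2 fold change of each of the 9 transcripts in the 4 pairwise comparisons, with bars of 1 standard error on each side (edgeR). The bars of Cidea are short, those of the other 8 are wide, and no value passed the adjusted threshold of 0.05.

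The 5 genes outside the set whose ranks were most like those of Adipoq over the 28 libraries, given as a description, were Acvr1c (rho 0.967), Ankef1 (0.939), Scd1 (0.937), RP23-100B18.3 (0.936) and Hp (0.934). Acvr1c encodes the receptor ALK7, which is abundant in adipocytes, Scd1 a stearoyl-CoA desaturase and Hp haptoglobin. RP23-100B18.3 is an antisense transcript inside Acvr1c, and reads of the pair cannot be told apart if strand was not used in counting. The median of RP23-100B18.3 was 0.0248 CPM, so its ranks rest on few counts. Of 24264 other genes, 232 (0.956%) had a rho of at least 0.8 with Adipoq, and 5 had a rho of -0.8 or less.

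The genes most like Ucp1 were Otop1 (rho 0.896), RP23-370G8.4 (0.857), Adtrp (0.857), Clstn3 (0.836) and Elovl6 (0.825). Their median levels, in this order, were 0.146, 0.455, 0.0884, 0.858 and 1.56 CPM, and the lowest level of each was 0. Ucp1 itself had 0 counts in 7 libraries, so ranks at the low end rest on few counts. Otop1 encodes a proton channel of brown fat, Elovl6 a fatty acid elongase, and a form of Clstn3 is known from thermogenic fat. A rho of at least 0.8 with Ucp1 was found for 8 genes. With Cidea no gene reached 0.8, and the highest was Gpd2, the mitochondrial glycerol-3-phosphate dehydrogenase, at 0.714.

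Among 18 other genes of white adipocytes, 10 had a rho of 0.7 or more with Adipoq and 3 (Lpl, Slc2a4 and Aqp7) a rho of -0.5 or less. The 2 most abundant were not rare in any library. Lpl, lipoprotein lipase, ran from 456 to 3292 CPM (rho -0.61), and Plin4, a droplet coat protein, from 564 to 1517 CPM (rho 0.14). Fabp4, the fatty acid binding protein of adipocytes and capillary endothelium, named after its values were seen, ran from 154 to 431 CPM (rho -0.22). These abundant genes made up most of the list's summed level, whose rho with Adipoq was -0.0235 (r = -0.0463, permutation p = 0.905 and 0.816).

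Of the 18 white fat genes 0 passed in 6 of the 7 comparisons, and their median log2 difference in CKD-vehicle against sham-vehicle was -0.29. In the averaged gavage comparison Plin4 was higher with Oxf by 0.49 ± 0.14 (edgeR adjusted p = 0.0489), 1 of 18 against 2.81% of all genes. Its adjusted p stayed under the threshold in 8 of 28 fits that left out 1 library. Of 16 brown fat genes 14 could be tested, and 1 passed in the same comparison, Cox8b, a subunit of cytochrome c oxidase found in brown fat, heart and muscle. It was lower with Oxf by -0.88 ± 0.25 (edgeR adjusted p = 0.0495) and stayed under the threshold in 10 of 28 such fits. Otop1 was the 1 brown fat gene with a rho of at least 0.7 with Adipoq (0.85), and 4 had -0.5 or less.

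The regulators of fat cell formation, 9 genes, included 0 that passed in any comparison. Cebpa, which drives terminal adipocyte differentiation, had a rho of 0.89 with Adipoq and ran from 4.36 to 47.4 CPM. Srebf1, a regulator of lipid synthesis, had a rho of 0.71, and Pparg, the master regulator of adipocytes, 0.27 with a range of 10.4 to 29.5 CPM. The 2 most abundant, Klf4 and Rxra, had rho 0.24 and 0.26. Of the 4 receptors for adiponectin and leptin 0 passed. Cdh13, T-cadherin, which binds adiponectin, ran from 77.9 to 130.2 CPM and Adipor1 from 32.9 to 71.0 CPM, and Lepr, the leptin receptor, from 1.15 to 7.93 CPM.

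Some markers of other tissues moved with the fat transcripts. In all, 16 relations of Adipoq, with summed gene lists (fat lists included) and with properties of the libraries, were computed and adjusted together. The 7 markers of the mesothelium, the outer lining of the heart, summed to a rho of 0.640 with Adipoq (permutation p = 0.00037, adjusted p = 0.00148), with r = 0.680 (permutation p = 0.0001, adjusted p = 0.000533) and r = 0.623 without the 2 farthest libraries. Within groups the rho was 0.491, 0.200 and 0.679 for sham-vehicle, CKD-vehicle and CKD-Oxf, and without sham-Oxf 1 it was 0.601 over 27 libraries. The sum ran from 62.6 to 245 CPM in sham-vehicle and from 71.8 to 220 CPM in CKD-vehicle. In the mice given Oxf it ran from 44.3 to 220 CPM after sham surgery and from 34.9 to 326 CPM with CKD. Its part in the spread of the fat transcripts was not tested. Cardiomyocyte markers went the other way, with rho -0.542 (permutation p = 0.00376, adjusted p = 0.00859), r = -0.536 (permutation p = 0.00359, adjusted p = 0.00821) and r = -0.555 without the 2 farthest. The sums for macrophages (rho 0.211, r = 0.195), liver (0.0131, r = -0.176) and fibroblasts (0.190, r = 0.185) did not pass, with permutation p values of 0.279, 0.947 and 0.329 for rho and 0.320, 0.371 and 0.346 for r. The skeletal muscle sum had rho 0.369 (permutation p = 0.0553) and r = 0.0531 (permutation p = 0.788). Without sham-Oxf 1 its rho was 0.507 and its r 0.148. Within sham-vehicle, CKD-vehicle and CKD-Oxf its rho was 0.370, 0.657 and 0.607.

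Properties of the libraries also moved with Adipoq. The 7SL share had rho -0.587 (permutation p = 0.00137, adjusted p = 0.00365), r = -0.579 (permutation p = 0.00155, adjusted p = 0.00413) and r = -0.617 without the 2 farthest libraries. Within sham-vehicle, CKD-vehicle and CKD-Oxf its rho was -0.648, -0.543 and -0.964. The number of genes with a count had rho 0.7 (permutation p = 5e-05, adjusted p = 0.0004) and r = 0.674 (permutation p = 1e-05, adjusted p = 8e-05), with r = 0.65 without the 2 farthest and rho = 0.665 without sham-Oxf 1. Total counts had rho -0.340 (permutation p = 0.0766) and r = -0.163 (permutation p = 0.408). Without the 2 farthest libraries r was -0.516, and without sham-Oxf 1 rho was -0.495 and r -0.526. Within sham-vehicle, CKD-vehicle and CKD-Oxf the rho of total counts was -0.745, 0.0857 and -0.5. The part of these properties in the levels of the fat transcripts was not tested.

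**Figure D5:**
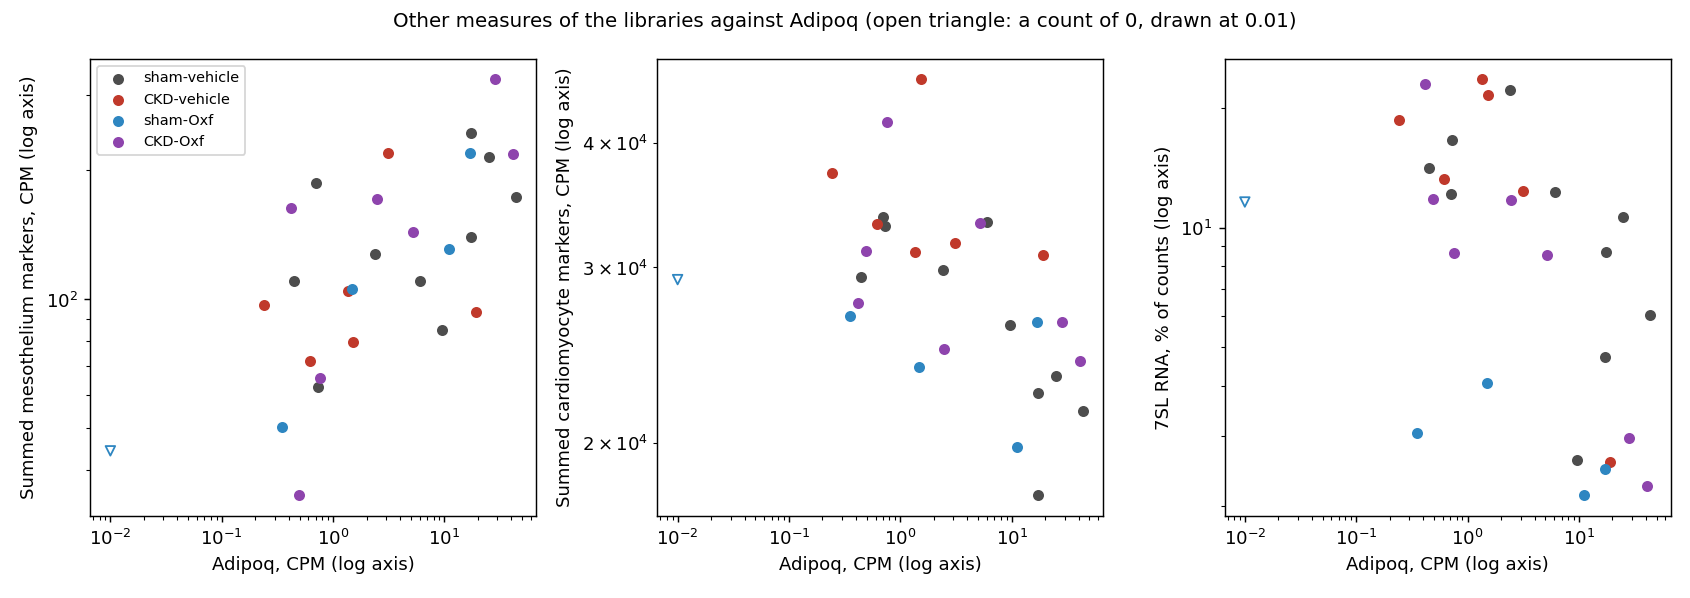
Summed mesothelium markers, summed cardiomyocyte markers (both in CPM) and 7SL RNA as a percent of counts against Adipoq in CPM, all on logarithmic axes, with 1 point per library coloured by group (open triangles: a count of 0). The mesothelium sum is higher where Adipoq is higher (rho 0.640), and cardiomyocyte markers (rho -0.542) and the 7SL share (rho -0.587) are lower.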

How the data were processed

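RNA of 28 ventricles was sequenced on a NovaSeq. The authors deposited raw counts per gene. The submitters' processing notes name FastQC 0.11.7, MultiQC 1.9, STAR 2.6.1d, featureCounts 1.6.3 of Subread and mm10; annotation, strand setting and handling of multiply mapped reads are not given in the sources used here. Identifiers were matched to GENCODE M21 (45465 of 45513), which gave positions and exon lengths.

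Counts of all 28 libraries were fitted with edgeR 4.0.16 (R 4.3.3) as 4 group means: genes kept by filterByExpr with a minimum count of 10 (24273, all 9 transcripts included), TMM factors, robust quasi-likelihood, Benjamini-Hochberg adjustment and a threshold of 0.05. The SE is the log2 difference divided by the root of F. The procedure was tested on simulated data with a common spread for all genes, so that test does not show its power for transcripts as variable as these. DESeq2 1.42.0 on all gene rows, limma 3.58.1 with a weight for each library, other scalings and filters, and leaving out each library were alternatives. Likeness used log2 CPM with a prior count of 2 and scipy 1.17.1.

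The 9 transcripts, the gene lists and the tests were chosen with earlier results of these data known. Named beyond the 9 were the 5 genes most like Adipoq and the 5 most like Ucp1, list genes past the threshold, and otherwise the 2 most abundant of a list; others were named after their values were seen. The limits of 5 and 1 CPM, and of rho 0.8, 0.7 and -0.5, were also set after the values were seen. Of the 109 list genes, those of cardiomyocytes, atria, skeletal muscle, mesothelium, liver, blood, macrophages and fibroblasts served as tissue checks, and 1 of the 13 lists, with its relation to Adipoq, is not reported here. Total counts of 19.8 to 65.4 M put 1 count at 0.0474 CPM or less.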

Additional observations from a re-analysis of the deposited data

Results flagged for a closer look

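Lep in the CKD-Oxf group had 1 library far from the others. In CKD-Oxf 6 its level was 1.76 CPM, and the gap to the next library took up 0.620 of the group's whole range on the log2 scale, above Dixon's limit of 0.568 for 7 samples. Adipoq was 41.2 CPM in the same library. The other CKD-Oxf libraries held 0 to 6 Lep counts, so the gap for Lep depends on the prior count of 2. The 36 combinations of 9 transcripts and 4 groups were tested, 1 was found, and chance gives about 1 in 20, or 1.8.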

How the results depend on the processing

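The 9 transcripts were fitted in 7 comparisons, which gave 63 log2 differences. Over the alternatives other than leaving out 1 library, 416 of 426 values kept their sign and their side of the threshold. These alternatives included fits with only the libraries of the compared groups. The number of transcripts past the threshold was 0 in every fit except 1 in the averaged gavage comparison with limma (Cidea). Scaling mattered for the likeness of Cidea to Adipoq: without TMM factors its rho was 0.493 and passed the threshold. The cause was not tested.

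With limma the sign turned for Ucp1 in CKD-Oxf against CKD-vehicle (1.95) and in the averaged gavage comparison (0.0168), for Lep in sham-Oxf against sham-vehicle (-0.33) and in the interaction (1.3), and in the averaged surgery comparison for Retn (-0.70) and Cidea (-0.0693). Serpina1c turned to -0.021 with limma. Cidea, near 0, was 0.0211 in CKD-vehicle against sham-vehicle without 7SL RNA, 0.00402 with only the compared groups, and -0.00936 in the averaged surgery comparison with upper quartile factors.

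When each library was left out in turn, 79 of 1260 values turned sign, 0 passed the threshold, and the lowest adjusted p (edgeR) was 0.0796. The ranges that included both signs are given by comparison. In CKD-vehicle against sham-vehicle this was Cidea (-0.30 to 0.16). In CKD-Oxf against CKD-vehicle they were Lep (-2.09 to 2.23) and Ucp1 (-2.09 to 2.68), both highest without CKD-vehicle 5. In sham-Oxf against sham-vehicle they were Lep (-0.90 to 0.81) and Cidec (-1.32 to 0.0527). In CKD-Oxf against sham-Oxf they were Plin1 (-0.74 to 0.67), Cidea (-0.0386 to 0.24), Ucp1 (-0.58 to 2.46) and Car3 (-0.35 to 1.18). In the interaction they were Lep (-2.43 to 1.89) and Cidea (-0.0654 to 0.39). In the averaged gavage comparison they were Adipoq (-0.24 to 0.99), Cfd (-0.075 to 1.05), Retn (-0.49 to 0.82), Lep (-0.88 to 1.29), Plin1 (-0.0744 to 1.32) and Car3 (-0.16 to 0.97). In the averaged surgery comparison they were Adipoq (-1.12 to 0.0915), Cfd (-0.92 to 0.13), Retn (-0.84 to 0.33), Cidea (-0.11 to 0.12) and Ucp1 (-1.74 to 0.39).

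A minimum of 10 counts in every library left only Cidea and Car3 to test. The tools also differed in settings: limma gave each library a weight, and DESeq2 was run without the filter on low counts. For all genes the number past the threshold depended on the tool: in the averaged gavage comparison it was 681 with edgeR, 2081 with DESeq2 and 5336 with limma, in CKD-Oxf against CKD-vehicle 8, 194 and 3639, in CKD-vehicle against sham-vehicle 2, 33 and 93, in sham-Oxf against sham-vehicle 0, 163 and 34, in the interaction 0, 1 and 0, in CKD-Oxf against sham-Oxf 0, 126 and 0, and for surgery averaged over gavages 0, 119 and 126. With edgeR the averaged gavage number was 161 without a filter and 1422 with at least 10 counts in every library. The number in CKD-Oxf against CKD-vehicle rose to 927 without CKD-Oxf 4. The alternatives for the list genes (Plin4, Cox8b, Tnni3, Tnni2, Alb and Serpina1c) were chosen after seeing the data. No paired analysis was possible because the labels give no replicate numbers that the groups share.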

Other observations

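Markers of other tissues passed the threshold in the averaged gavage comparison in a few cases, by edgeR. Alb, serum albumin, was higher with Oxf by 2.67 ± 0.69 (adjusted p = 0.04) and Serpina1c, another liver secretory gene, by 2.76 ± 0.72 (adjusted p = 0.04), 2 of 8 liver genes. Tnni3, cardiac troponin I, was lower by -0.72 ± 0.19 (adjusted p = 0.0447), 1 of 8 cardiomyocyte genes. Tnni2, troponin I of fast skeletal muscle, was lower by -3.78 ± 0.92 (adjusted p = 0.0351), 1 of 8 tested skeletal muscle genes. When 1 library was left out, the call held in 13 of 28 fits for Alb, 15 for Serpina1c, 12 for Tnni3 and 21 for Tnni2. With limma Alb was 0.73 (adjusted p = 0.497), Serpina1c -0.02 (adjusted p = 0.987) and Tnni2 -1.89 (adjusted p = 0.18). Serpina1c was 1.69 without sham-Oxf 1. Alb was 1.89 without CKD-Oxf 4, the library with a liver sum of 124 CPM. Tnni2 was -2.38 (edgeR adjusted p = 0.0811) without CKD-vehicle 1 and -2.53 without sham-vehicle 6, the libraries with skeletal muscle sums of 758 and 633 CPM. No gene of the atrial, mesothelial, blood, macrophage or fibroblast lists passed in any of the 7 comparisons.

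Summed atrial markers had a rho of 0.352 with Adipoq (permutation p = 0.0669, r = 0.374 with permutation p = 0.0503) and blood markers -0.334 (permutation p = 0.0813, r = -0.442 with permutation p = 0.0186, adjusted p = 0.0371). The sums for adipocyte regulators, brown fat genes and adipokine receptors had rho 0.651, -0.612 and -0.198 (permutation p = 0.00029, 0.00079 and 0.312). Their r was 0.674, -0.629 and -0.226 (permutation p = 0.00017, 0.00039 and 0.245). The brown sum included genes abundant in every library, such as Ppargc1a (56.1 to 155 CPM, rho -0.19) and Cox7a1 (11.8 to 156 CPM, rho -0.55). Among its rarer genes rho was 0.85 for Otop1, 0.60 for Dio2, 0.48 for Elovl3 and 0.44 for Bmp8b. It was 0.00438 for Cited1 and -0.0328 for Slc27a2.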
